A study of Mus musculus with 4 samples.

Results

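The 10 genes described here carry hepatic glucose production and its control by insulin: the gluconeogenic enzymes G6pc, Pck1, Fbp1 and Pcx, the regulators Ppargc1a and Foxo1, the secreted protein gene Igfbp1, and the insulin receptor gene Insr with its substrates Irs1 and Irs2. They were chosen by name, and their probes were found through the transcript accession that the array files give for each spot. The accessions matched 13 probes of these 10 genes, of 33767 probes and 23462 genes matched in all. Whole liver RNA of male mice was hybridised to 4 one-colour arrays, 1 per group. The groups were aging diabetic mice given astragalus polysaccharide (APS, plant carbohydrate) together with metformin, aging diabetic mice given metformin alone (a biguanide that lowers blood glucose), aging diabetic mice for which no drug is named, and natural aging mice without drug treatment. All mice were fasted for 12 hours. The strain, the age, the way diabetes was induced, the doses and whether an RNA came from 1 mouse or several are not given in the sources used here, and the sample titles carry the mark 60d, which is not explained. The question put by the series title is what adding APS to metformin does to liver mRNA in such mice.

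In the fasted liver, glucagon acting through cAMP, together with glucocorticoids, switches on the genes of gluconeogenesis, and insulin switches them off. Insulin binds its receptor, the receptor phosphorylates IRS1 and IRS2, and the kinase AKT downstream of them drives the transcription factor FOXO1 out of the nucleus. FOXO1 activates G6pc, Pck1, Igfbp1 and Irs2, and the coactivator PGC-1α, the product of Ppargc1a, works with FOXO1 and HNF4α on the gluconeogenic promoters.

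Without controls an array has 59305 spots, of which 56.8% to 63.1% were well above background, and no spot was saturated. Levels are given as log2 of the processed signal over the 75th percentile of the same array, so that 1 unit is a 2-fold step. They compare arrays for 1 probe, never 1 probe with another. All 52 readings of the 13 probes were well above background, and each probe was a single spot per array. With 1 array per group there was no test, and every difference is between 2 arrays. The error given with a difference combines the image-analysis errors of both spots. It was 0.163 log2 for most of these probes, since nearly every bright spot carried the same error, 0.115 log2. With single spots this error is not a spread between replicate spots, and it does not hold the spread between animals. For a set of probes spotted repeatedly on each array, the median standard deviation was 0.0583 to 0.0698 log2. A difference of 1 log2 was counted as higher or lower. All 4 arrays lay on 1 slide.

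Of the 10 genes, Ppargc1a and Irs2 differed by 2-fold or more between any of the arrays. Ppargc1a was highest on the APS plus metformin array, and Irs2 was lowest on the metformin array and highest on the natural aging array. G6pc, Pck1, Fbp1, Pcx, Foxo1 and Igfbp1 were also highest on the natural aging array and lowest on the metformin array, with ranges from 0.41 to 0.92 log2. Not all of these orders held under other processing: in at least 1 alternative the sign turned for Pck1 and Fbp1 between aging diabetic and natural aging, for G6pc, Pcx and Igfbp1 between metformin and aging diabetic, for Pck1 between APS plus metformin and natural aging, and for Pcx between metformin and natural aging. Between APS plus metformin and metformin it turned for G6pc, Pcx, Insr and Irs1, with G6pc at -0.28 and Pcx at -0.20 log2 after quantile normalization, so that metformin was then not the lowest array for these 2 enzymes. Irs1 ran the other way, highest on the metformin array and lowest on the natural aging array. The 75th percentile used for scaling was 2699.5 with natural aging, 3068.4 in aging diabetic liver, 3406.4 with APS plus metformin and 3589.0 with metformin. Before scaling, processed signals on the natural aging and metformin arrays were 13160 and 13125 for Foxo1 and 35887 and 35102 for Pcx. They were 45645 and 40428 for G6pc, 54892 and 45064 for Pck1, 58583 and 50798 for Fbp1 and 53415 and 37479 for Igfbp1. The part of the scaling in these orders was not tested.

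**Figure D1:**
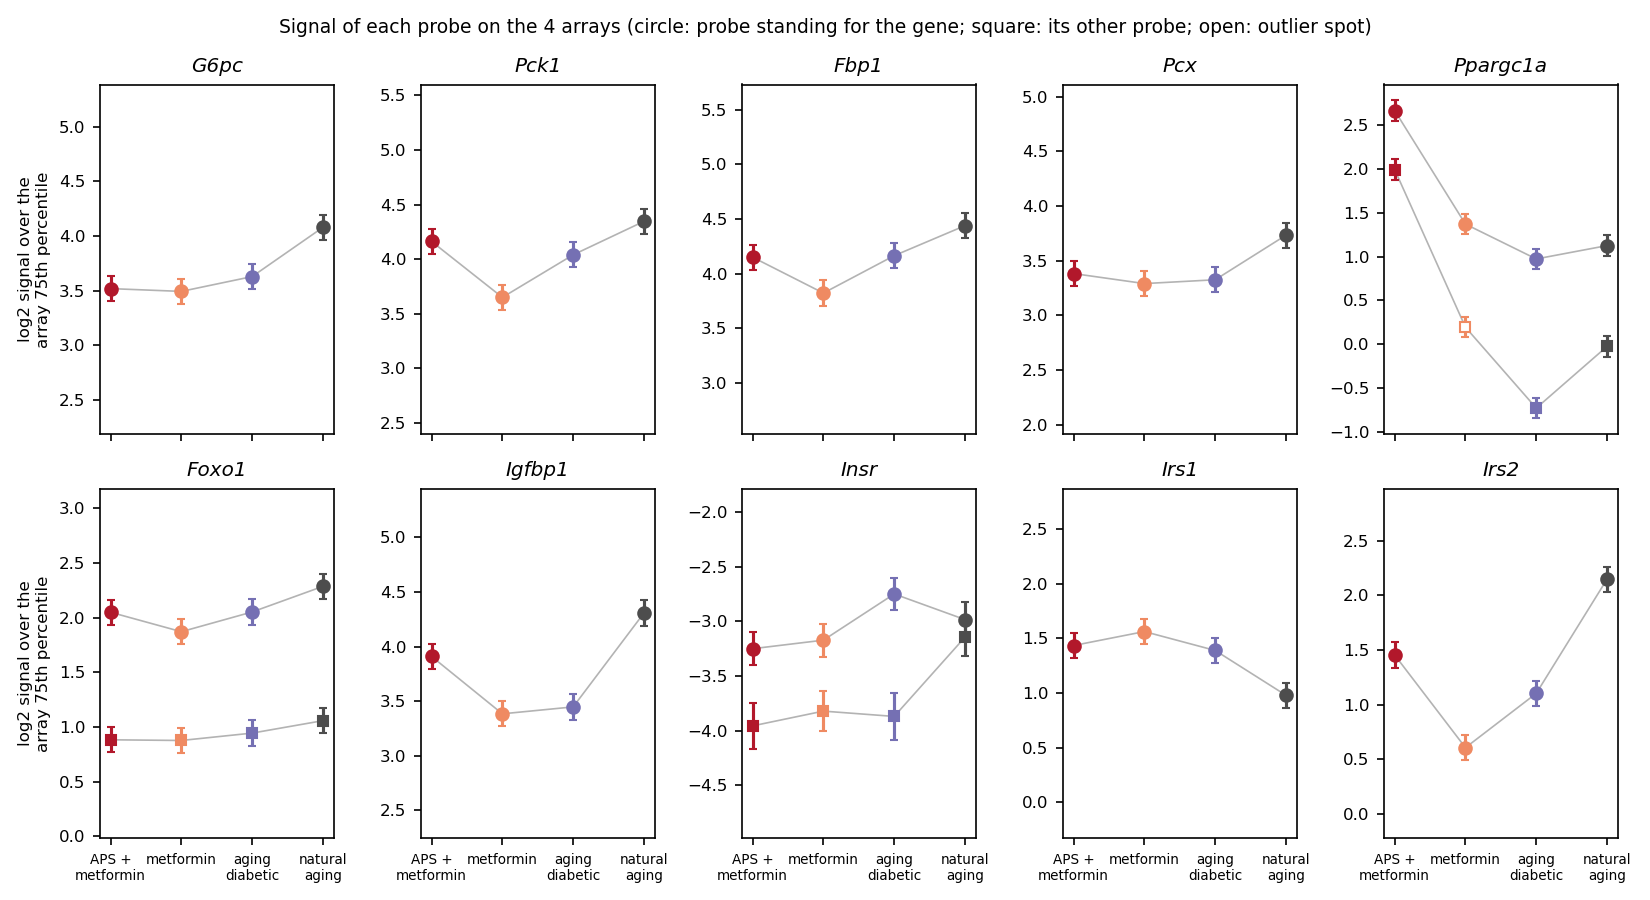
Level of each probe (log2 signal over the 75th percentile of its array, y axis) on the 4 arrays (x axis, 1 array per group); bars are the image-analysis error of the spot. Circles are the probe that stands for the gene, squares the other probe, and the open square is a spot with an outlier flag; both Ppargc1a probes are highest with APS plus metformin, and Irs2 is highest with natural aging at 2.15.

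PGC-1α is induced in the liver by fasting and raises gluconeogenesis and mitochondrial oxidation. The Ppargc1a probe that stands for the gene was at 2.66 log2 on the APS plus metformin array, 1.37 on the metformin array, 0.97 on the aging diabetic array and 1.12 on the natural aging array. The APS plus metformin array thus stood apart from the other three, which lay within 0.40 log2 of each other. It was 3.23-fold above the aging diabetic array (1.69 ± 0.163 log2), 2.45-fold above the metformin array (1.29 ± 0.163) and 2.90-fold above the natural aging array (1.54 ± 0.163). The second Ppargc1a probe, of the same transcript accession, was at 1.99 on the APS plus metformin array, 0.20 on the metformin array, -0.73 on the aging diabetic array and -0.02 on the natural aging array. Its spot on the metformin array carried an outlier flag, so this probe was left out of the gene's value. It put the APS plus metformin array 6.56-fold above the aging diabetic array, against 3.23-fold by the first probe. Both probes placed the 4 arrays in the same order, with the aging diabetic array lowest. Across 7 other ways of processing, some of which could not change this probe, the Ppargc1a difference was 1.62 to 1.69 log2 for APS plus metformin against aging diabetic and 1.19 to 1.46 against metformin.

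Among 12688 other genes well above background on all 4 arrays, those whose centred levels came closest to Ppargc1a were Gpr161, a G protein-coupled receptor of the cilium, at a root mean square difference of 0.102 log2, Abraxas1, a scaffold of a DNA repair complex, at 0.118, and Dhtkd1, a mitochondrial dehydrogenase of lysine breakdown, at 0.147. With 4 arrays this describes 4 points. Gpr161 was at -1.53 on the APS plus metformin array, -2.92 on the metformin array, -3.04 on the aging diabetic array and -3.07 on the natural aging array.

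cAMP acts on Ppargc1a and Pck1 through CREB, which binds the cAMP response element. The 250 bases upstream of the transcription start of both genes (RefSeq, GRCm38.p6) are shown because both genes are textbook CREB targets, and only Ppargc1a was at least 2-fold higher with APS plus metformin. The core TGACG of that element was searched on both strands, and capitals mark the match, which reads CGTCA on the strand printed. Ppargc1a lies at chr5:51567726-51567975 on the minus strand and Pck1 at chr2:173152823-173153072 on the plus strand.
Ppargc1a: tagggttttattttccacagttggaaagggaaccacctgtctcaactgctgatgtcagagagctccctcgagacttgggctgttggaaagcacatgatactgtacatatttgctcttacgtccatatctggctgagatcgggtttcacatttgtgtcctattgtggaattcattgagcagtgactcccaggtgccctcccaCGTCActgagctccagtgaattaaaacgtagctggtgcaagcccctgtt
Pck1: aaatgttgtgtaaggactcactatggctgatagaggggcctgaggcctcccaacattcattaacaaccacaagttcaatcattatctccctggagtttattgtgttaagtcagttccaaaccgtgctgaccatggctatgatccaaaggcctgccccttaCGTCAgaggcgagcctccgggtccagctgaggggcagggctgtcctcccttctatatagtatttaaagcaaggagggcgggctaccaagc
The match lies at positions -49 to -45 from the start of Ppargc1a and at -90 to -86 from that of Pck1. TGACG was in 3 of 10 upstream regions of 9 of these genes, those of Ppargc1a, Pck1 and Irs1, and in 17.8% of 32851 such regions of all genes. A match is a stretch of letters and says nothing of binding.

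Foxo1 encodes the transcription factor that insulin restrains. Its main probe was at 2.05 log2 on the APS plus metformin array, 1.87 on the metformin array, 2.05 on the aging diabetic array and 2.29 on the natural aging array. The second Foxo1 probe was at 0.88 with APS plus metformin, 0.88 with metformin, 0.94 in the aging diabetic liver and 1.06 in the natural aging liver. Both probes were highest with natural aging. The main probe was lowest with metformin, while on the second the metformin and APS plus metformin arrays differed by less than the measurement error.

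Of the enzymes, glucose-6-phosphatase (G6pc) releases free glucose as the last step of the pathway. G6pc was at 3.52 log2 on the APS plus metformin array, 3.49 on the metformin array, 3.63 on the aging diabetic array and 4.08 on the natural aging array. The 3 diabetic arrays lay within 0.14 log2 of each other, which is under the measurement error, and the natural aging array was above all of them, with the aging diabetic array lower by 1.37-fold (-0.45 ± 0.163 log2). After quantile normalization that difference was -0.13 log2, under the error, and the diabetic arrays lay at 3.46 with APS plus metformin, 3.74 with metformin and 3.69 in the aging diabetic liver.

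Phosphoenolpyruvate carboxykinase (Pck1) makes phosphoenolpyruvate from oxaloacetate. Its levels were 4.16 on the APS plus metformin array, 3.65 on the metformin array, 4.04 on the aging diabetic array and 4.35 on the natural aging array. Pck1 was lower with metformin alone than on the other 3 arrays, by 1.31-fold against aging diabetic (-0.39 ± 0.163 log2), and 1.43-fold higher with APS plus metformin than with metformin alone (0.51 ± 0.163). After quantile normalization those differences were -0.18 and 0.22 log2.

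Fructose-1,6-bisphosphatase (Fbp1) opposes phosphofructokinase. Fbp1 was at 4.15 with APS plus metformin, 3.82 with metformin, 4.17 in the aging diabetic liver and 4.44 in the natural aging liver. Pyruvate carboxylase (Pcx) makes oxaloacetate from pyruvate in the mitochondrion, and was at 3.38 with APS plus metformin, 3.29 with metformin, 3.32 in the aging diabetic liver and 3.73 in the natural aging liver. For both enzymes every array stayed within 1.53-fold of the natural aging array, and between the APS plus metformin and the aging diabetic array neither differed by more than the measurement error.

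IGFBP1 is a secreted protein that binds insulin-like growth factors, and its gene is kept low by insulin through FOXO1. Igfbp1 was at 3.91 log2 on the APS plus metformin array, 3.38 on the metformin array, 3.45 on the aging diabetic array and 4.31 on the natural aging array. Both the metformin and the aging diabetic array were low, by 1.89-fold (-0.92 ± 0.163 log2) and 1.81-fold (-0.86 ± 0.163) against natural aging. With APS plus metformin the level was 1.38-fold above aging diabetic (0.46 ± 0.163) and 1.44-fold above metformin (0.52 ± 0.163), between the low pair and natural aging. None of these steps reached 2-fold. After quantile normalization the differences of metformin and of aging diabetic from natural aging were -0.41 and -0.53 log2.

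Insr encodes the insulin receptor and had 2 probes, of different transcript accessions, that did not run together. The brighter one was at -3.25 log2 on the APS plus metformin array, -3.17 on the metformin array, -2.75 on the aging diabetic array and -2.98 on the natural aging array. The dimmer one was at -3.96 on the APS plus metformin array, -3.82 on the metformin array, -3.87 on the aging diabetic array and -3.14 on the natural aging array. By the brighter probe the aging diabetic array was the highest and 0.23 ± 0.216 log2 above natural aging, while by the dimmer probe it was 0.73 ± 0.277 below. The APS plus metformin and metformin arrays differed by less than the measurement error on both probes, at -0.08 and -0.13 log2 (0.05 and 0.012 after quantile normalization). No direction is given for Insr in either comparison.

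Both receptor substrates had 1 probe, and Irs1 was highest on the array where Irs2 was lowest. Irs1, which carries insulin signals in liver and muscle, was at 1.44 log2 on the APS plus metformin array, 1.56 on the metformin array, 1.39 on the aging diabetic array and 0.98 on the natural aging array. The 3 diabetic arrays lay close together and above natural aging, with aging diabetic 1.33-fold higher (0.41 ± 0.163 log2) and metformin higher by 0.58 ± 0.163 log2. Irs2, the substrate that fasting induces in liver, was at 1.45 on the APS plus metformin array, 0.61 on the metformin array, 1.102 on the aging diabetic array and 2.15 on the natural aging array. All 3 diabetic arrays were below natural aging: metformin by 2.91-fold (-1.54 ± 0.163), aging diabetic by 2.06-fold and APS plus metformin by 1.62-fold (-0.69 ± 0.163). The difference of aging diabetic from natural aging was -1.045 ± 0.163 log2, just past the threshold, and stood at -0.96 after quantile normalization. Irs2 was 1.80-fold higher with APS plus metformin than with metformin alone (0.85 ± 0.163), short of 2-fold.

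Irs2 and Igfbp1 are textbook FOXO1 targets. Among the targets named at the outset (G6pc, Pck1, Igfbp1 and Irs2) they had the widest ranges, 0.92 log2 for Igfbp1 and 1.54 for Irs2. G6pc varied less, by 0.59 log2. Their upstream regions are shown for that contrast. CAAAACA, a core of the insulin response sequence to which FOXO1 binds, was searched on both strands and is in capitals, as TGTTTTG where it lies on the other strand. The regions are chr8:11008930-11009179 on the minus strand for Irs2, chr11:7197537-7197786 on the plus strand for Igfbp1 and chr11:101367466-101367715 on the plus strand for G6pc, all 250 bases before the start in GRCm38.p6 (RefSeq).
Irs2: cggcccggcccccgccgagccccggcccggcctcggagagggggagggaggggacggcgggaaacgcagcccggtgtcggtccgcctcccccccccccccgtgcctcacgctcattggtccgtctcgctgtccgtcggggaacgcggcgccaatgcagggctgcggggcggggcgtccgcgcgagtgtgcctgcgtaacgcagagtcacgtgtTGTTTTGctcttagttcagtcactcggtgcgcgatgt
Igfbp1: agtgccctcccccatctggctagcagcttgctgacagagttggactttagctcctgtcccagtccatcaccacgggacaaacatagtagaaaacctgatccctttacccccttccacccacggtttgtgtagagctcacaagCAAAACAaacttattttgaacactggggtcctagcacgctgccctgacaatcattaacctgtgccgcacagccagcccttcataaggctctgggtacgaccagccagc
G6pc: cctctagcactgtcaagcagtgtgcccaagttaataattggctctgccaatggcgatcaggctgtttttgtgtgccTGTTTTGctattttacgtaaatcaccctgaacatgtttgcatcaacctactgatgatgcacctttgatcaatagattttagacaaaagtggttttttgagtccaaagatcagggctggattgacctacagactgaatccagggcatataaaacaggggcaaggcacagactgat
The match lies at positions -37 to -31 from the start of Irs2, -108 to -102 from that of Igfbp1 and -174 to -168 from that of G6pc. CAAAACA was in 4 of 10 upstream regions of these genes, Irs1 being the other, and in 5.56% of all 32851. GTAAACA, another FOXO consensus, was in 0 of 10 and in 3.17% of all. Only the Irs1 region held both CAAAACA and TGACG, and its matches did not overlap. Of the 4 genes with the match, Irs2, Igfbp1 and G6pc were highest on the natural aging array and lowest on the metformin array, and Irs1 ran the other way. Pck1, Fbp1, Pcx and Foxo1, whose regions lack the match, had the same highest and lowest arrays as Irs2, so the order does not set genes with the match apart. Not all of these orders held after quantile normalization, where G6pc was lowest with APS plus metformin and Igfbp1 in aging diabetic liver. Nothing about FOXO1 binding follows from the letters.

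**Figure D2:**
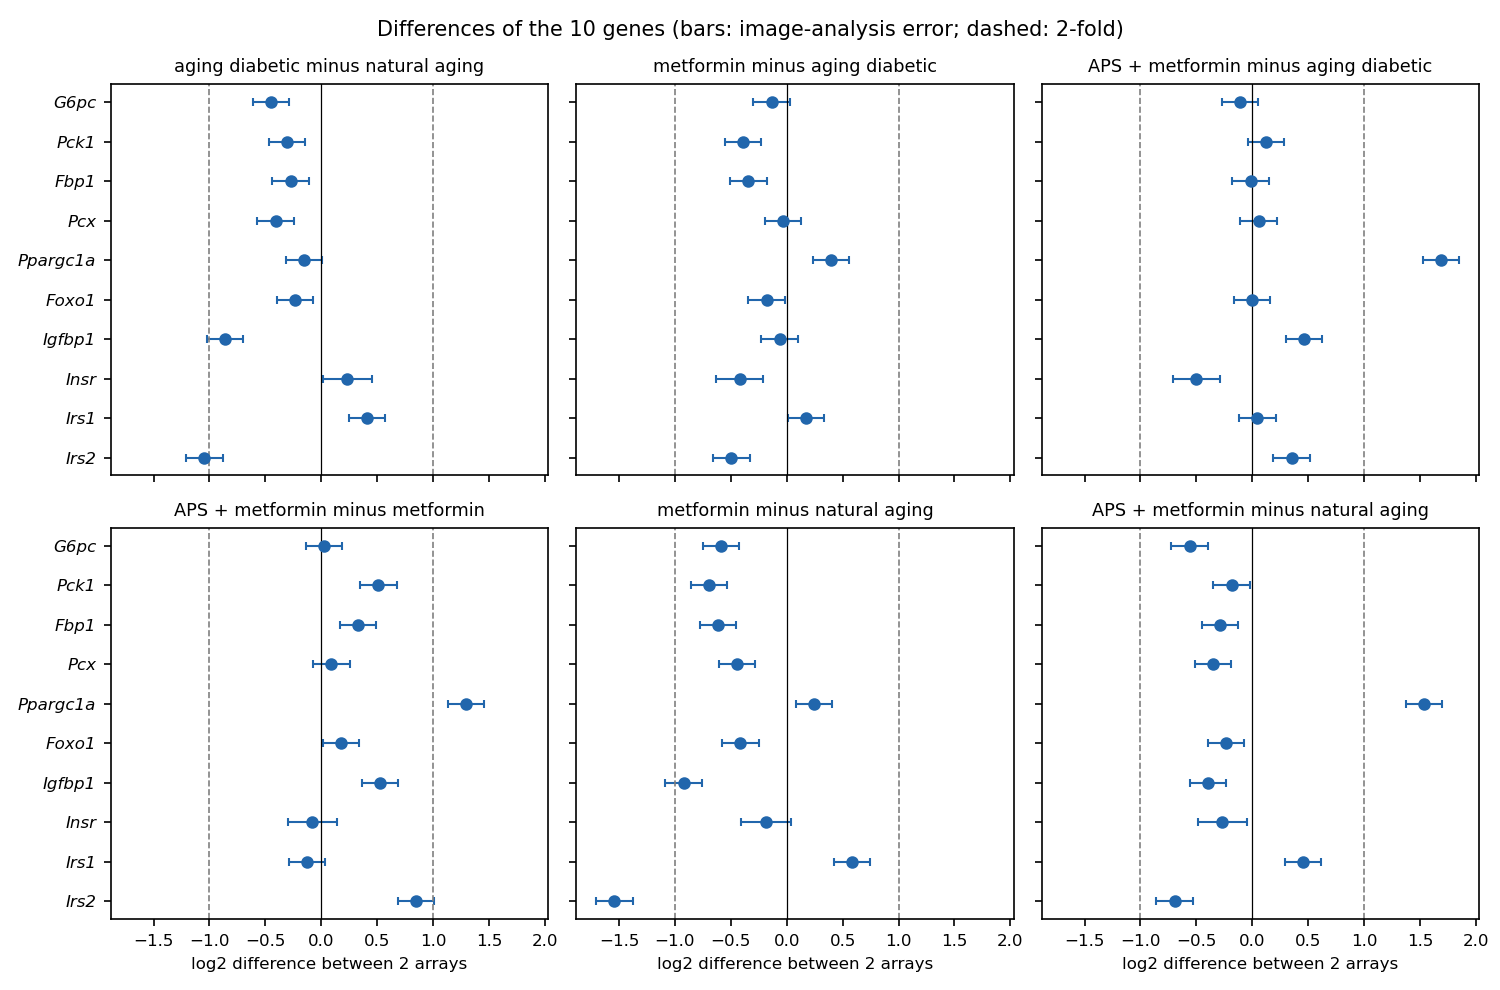
Log2 difference between 2 arrays (x axis) for the 10 genes (y axis) in the 6 comparisons, with the image-analysis error as bars and dashed lines at 2-fold. Ppargc1a lies beyond 2-fold in the 3 comparisons that have APS plus metformin on top, and Irs2 below it for aging diabetic and metformin against natural aging.

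Counted over the comparisons, at most 1 of the 10 genes passed 2-fold in any of them. In aging diabetic against natural aging liver, 1 of 10 was lower (Irs2) and 0 higher, where 6.09% of 14453 genes compared were lower and 8.20% higher. With metformin against aging diabetic, 0 of 10 passed, where 11.9% of 15562 genes were higher and 3.53% lower, and the widest member difference was -0.50 log2 for Irs2. With APS plus metformin against aging diabetic, 1 of 10 was higher (Ppargc1a) and 0 lower, where 4.38% of 14734 genes were higher and 6.90% lower. APS plus metformin against metformin had 1 of 10 higher, again Ppargc1a, where 2.37% of 15599 genes were higher and 12.4% lower. Metformin against natural aging had 1 of 10 lower (Irs2), where 4.71% of 15548 genes were lower and 13.0% higher. APS plus metformin against natural aging had 1 of 10 higher (Ppargc1a), where 6.14% of 14634 genes were higher and 6.68% lower. A count of 1 in 10 is the smallest above 0, so these shares do not set the genes apart from the rest. The comparisons share arrays, and the level on 1 array enters several of them.

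A threshold of 1.5-fold brought in Igfbp1, Pck1, Fbp1 and G6pc on the lower side and Irs2 on both. Aging diabetic against natural aging then had 2 of 10 lower (Irs2 and Igfbp1), where 14.3% of genes were lower and 16.4% higher. Metformin against aging diabetic had 0 of 10 in either direction, where 20.8% were higher and 9.52% lower. APS plus metformin against aging diabetic had 1 of 10 higher and 0 lower, where 11.9% were higher and 15.0% lower. APS plus metformin against metformin had 2 of 10 higher (Ppargc1a and Irs2), where 8.55% were higher and 22.1% lower. Metformin against natural aging had 5 of 10 lower (Irs2, Igfbp1, Pck1, Fbp1 and G6pc), where 13.8% were lower and 23.1% higher, the comparison in which hepatocyte markers were also lowest. After quantile normalization Irs2 was at -1.41 log2 there, Igfbp1 at -0.41, Pck1 at -0.16, Fbp1 at -0.079 and G6pc at -0.075, so that of these 5 genes only Irs2 was past 1.5-fold. APS plus metformin against natural aging had 1 of 10 higher and 1 lower (Irs2), where 14.4% were higher and 14.7% lower.

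The medians of the 10 genes ran close to those of hepatocyte markers. The member median was -0.29 log2 for aging diabetic against natural aging, -0.16 for metformin against aging diabetic, 0.051 for APS plus metformin against aging diabetic, and 0.25 for APS plus metformin against metformin. For the 8 hepatocyte markers with a usable probe (of 10 listed, among them Alb, Ttr and Hnf4a, all well above background on all arrays), the medians were -0.36, -0.32, 0.057 and 0.39 in the same comparisons. Over all genes compared the median lay between -0.045 and 0.016 in the 6 comparisons. After quantile normalization, which equalises the bright end of the arrays, the member medians shrank to -0.12, -0.008, 0.007 and 0.047, and the hepatocyte marker medians to -0.022, -0.11, -0.032 and 0.094. In whole liver RNA, fewer hepatocytes and less of an RNA per hepatocyte cannot be told apart. Neither the part of the hepatocyte marker shift nor that of the scaling in the members' differences was tested.

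**Figure D3:**
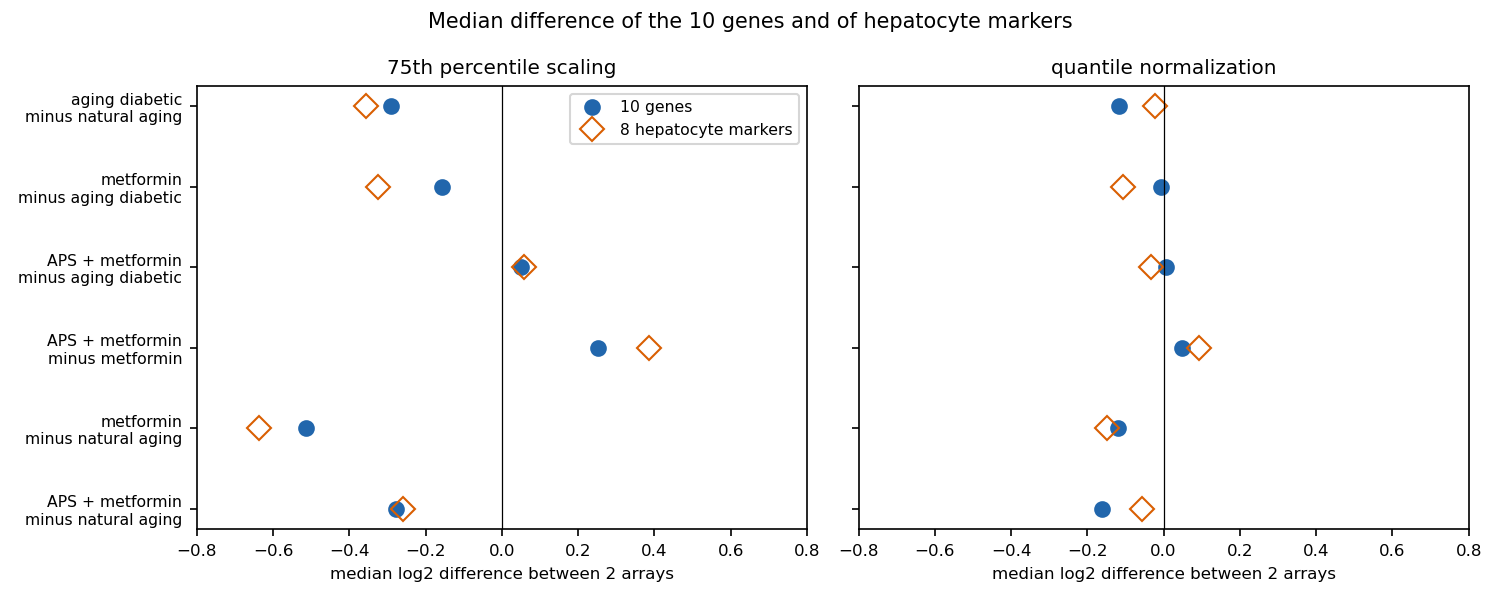
Median log2 difference (x axis) of the 10 genes (filled circles) and of 8 hepatocyte markers (open diamonds) in the 6 comparisons (y axis), with 75th percentile scaling on the left and quantile normalization on the right. On the left the sets lie side by side, at -0.51 and -0.64 for metformin against natural aging; on the right both lie within 0.17 log2 of 0.

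Markers of several other cell types differed widely between the arrays. The 7 usable pancreatic acinar markers (of 8 listed) summed to 0.18 times the 75th percentile on the APS plus metformin array, 10.2 on the metformin array, 2.49 on the aging diabetic array and 51.3 on the natural aging array. On the APS plus metformin array 2 of these 7 were well above background, and all 7 were on each other array. The 5 T and NK cell markers, of which Klrb1c was below background on every array, summed to 0.617 with APS plus metformin, 3.25 with metformin, 0.342 in the aging diabetic liver and 1.18 in the natural aging liver. The acinar sum was lowest on the array where Ppargc1a was highest and highest on the array where Irs2 was highest. The summed levels of 4 other sets were lowest in aging diabetic liver: 17.0 to 24.3 for endothelial cells, 1.63 to 7.11 for stellate cells and matrix, 24.9 to 36.1 for erythroid cells and 1.72 to 2.52 for adipocytes. Bright markers weigh most in such sums, and single markers did not all follow. Lyve1, Des, Col1a1 and Cfd were lowest with APS plus metformin, Clec4g and Lep with metformin, and Plin1 was below background on every array. For B cells, at 0.176 to 0.484, and pancreatic islet, at 0.315 to 0.558, only 1 of 4 and 2 of 6 markers were well above background on all arrays, so their order is not given. The sums of the other 3 were lowest with APS plus metformin and highest with natural aging: 18.9 to 34.3 for Kupffer cells, 1.29 to 2.69 for cholangiocytes and 1.45 to 6.48 for neutrophils. Single markers did not all follow: Vsig4, Cd5l, Krt7 and Sox9 were lowest in aging diabetic liver, and Adgre1, Krt7 and Sox9 were not highest with natural aging. The part of these cells in the differences of the 10 genes was not tested.

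Against aging diabetic liver, the APS plus metformin array was higher for Ppargc1b, the paralogue of Ppargc1a, and lower for 2 of 8 compared genes that insulin induces. Ppargc1b, a coactivator of mitochondrial and lipid genes, was at 0.62 log2 on the APS plus metformin array, -0.84 on the metformin array, -1.17 on the aging diabetic array and -1.54 on the natural aging array. It was 3.44-fold above aging diabetic and 2.75-fold above metformin, so both PGC-1 coactivator genes were highest on the same array. Of 25 genes compared in a list of gluconeogenic regulators, 2 were at least 2-fold higher, Ppargc1b and the nuclear receptor gene Nr4a1 (2.15-fold), and 0 lower, where 4.38% of all genes were higher. The list's median was 0.034.

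In the list of genes that insulin induces in liver, 2 of 8 compared were at least 2-fold lower with APS plus metformin than in aging diabetic liver and 0 higher, against 6.90% of all genes lower. Pnpla3, a lipid droplet hydrolase gene under SREBP-1c, was at -2.78 on the APS plus metformin array, -0.52 on the metformin array, -0.22 on the aging diabetic array and 0.37 on the natural aging array, or 5.90-fold below aging diabetic. The other was Pnpla5, a paralogue of Pnpla3, 2.63-fold lower. The list's median was -0.024.

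Of 23 genes compared in the list of enzymes and transporters along gluconeogenesis and shared glycolysis, 2 were at least 2-fold lower with APS plus metformin than in aging diabetic liver, and 0 higher. Over all genes in this comparison, 6.90% were lower and 4.38% higher, so the small counts in this paragraph do not set the lists apart. One of the 2 lower genes was Pklr, liver pyruvate kinase, which works in glycolysis and against gluconeogenesis. Pklr was at -2.00 log2 on the APS plus metformin array, -0.55 on the metformin array, -0.56 on the aging diabetic array and 0.69 on the natural aging array, 2.71-fold below aging diabetic. The other was Fbp2, the muscle form of fructose bisphosphatase, 2.68-fold lower (-0.99 log2 with normexp background correction) from low signals. The remaining 21 stayed within 2-fold, with a list median of 0.041. Of 13 FoxO and fasting targets 0 passed, at a median of 0.34, of 23 genes from the insulin receptor to AKT and mTOR 1 did (Pik3r3, a regulatory subunit of PI 3-kinase, 2.57-fold lower), and of 19 brakes on insulin signalling 1 did (Trib2, a pseudokinase gene, 2.21-fold higher, but 0.83 log2 with normexp background correction). Of the 10 genes of the IGF axis 1 was higher, the fetal growth factor gene Igf2 (3.35-fold).

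**Figure D4:**
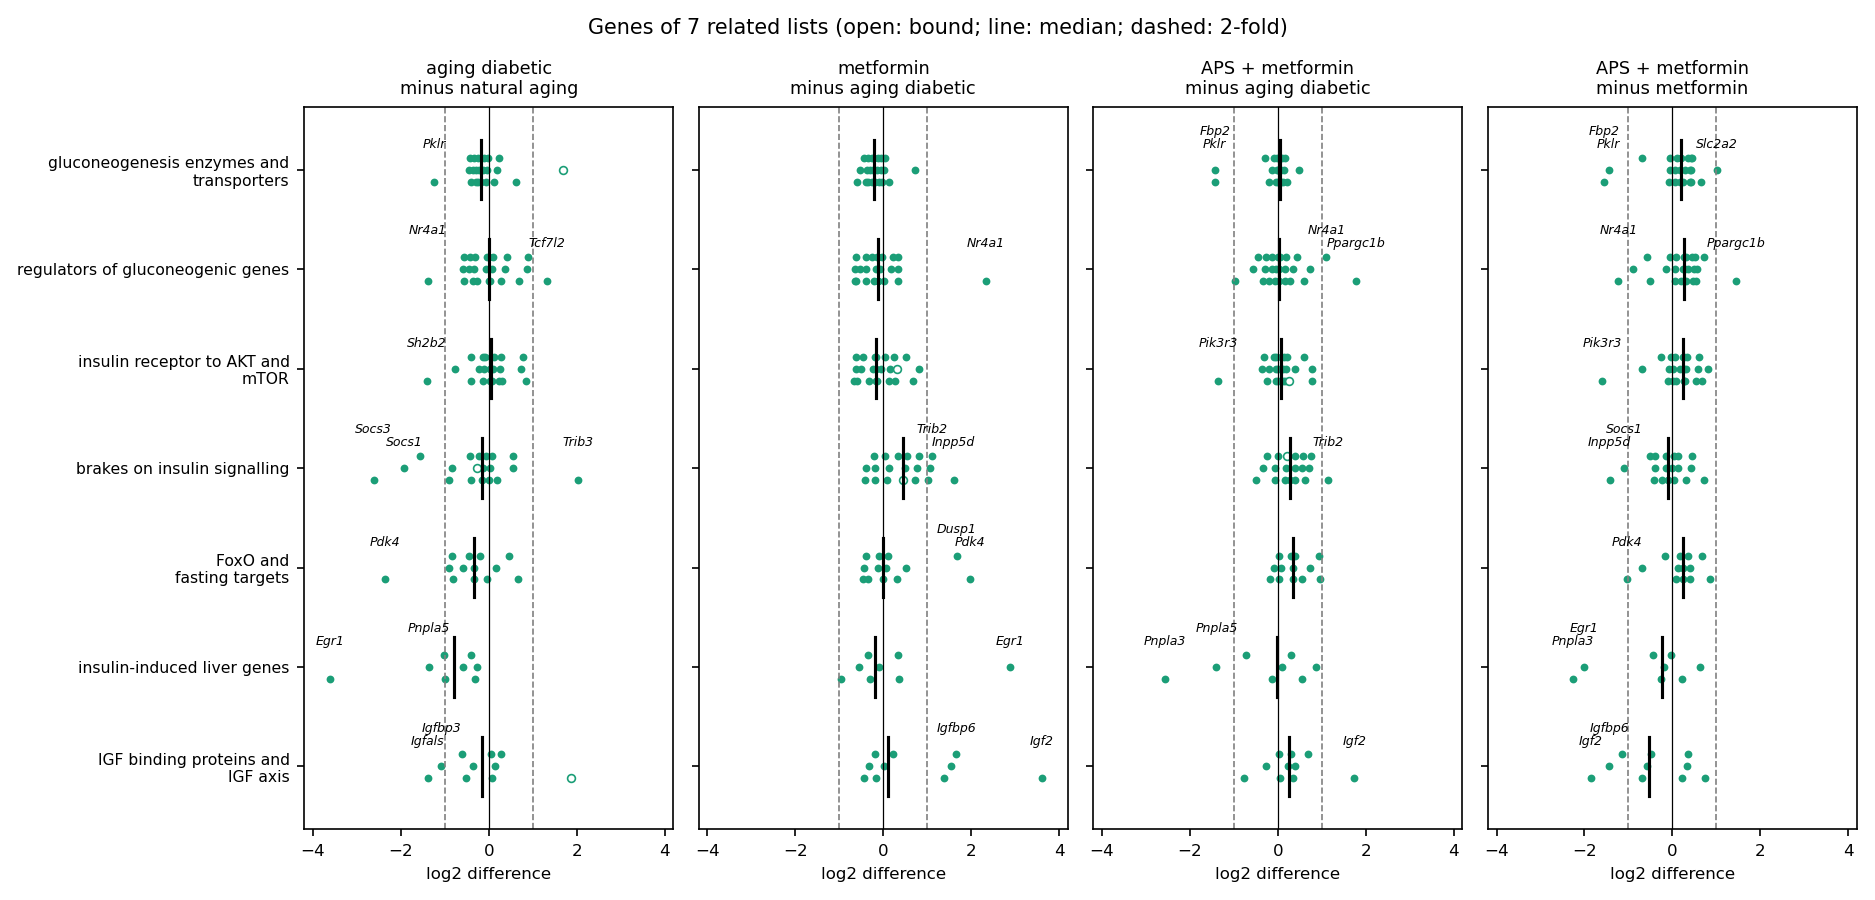
Log2 difference (x axis) of each compared gene of 7 related lists (y axis) in 4 comparisons; filled points were well above background on both arrays, open points are bounds, black ticks are list medians and dashed lines mark 2-fold. Most genes lie within 2-fold, and Pnpla3, by its brighter probe, lies below -2 in both comparisons with APS plus metformin on top.

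Set against metformin alone, the APS plus metformin array again had Pnpla3 low, with 2 of 8 insulin-induced genes lower and 0 higher, where 12.4% of all genes were lower. Pnpla3 was 4.80-fold lower, and Egr1, an immediate-early transcription factor gene, was lower at -2.00 log2. A dimmer Pnpla3 probe gave -1.34 log2 here and -2.25 against aging diabetic. It was not well above background on the APS plus metformin array. Pklr was 2.73-fold lower, and Slc2a2, the GLUT2 glucose transporter through which hepatocytes take up and release glucose, was 2.02-fold higher (short of 2-fold after quantile normalization). Pdk4, which spares pyruvate for gluconeogenesis by blocking pyruvate dehydrogenase, was 2.05-fold lower (-0.87 log2 with median scaling), the 1 of 13 FoxO and fasting targets past 2-fold. Pik3r3 was 3.02-fold lower, 1 of 23 from the receptor to AKT and mTOR. Of 10 genes of the IGF axis 3 were lower (Igf2, Igfbp6 and Igfbp5), at a list median of -0.533.

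In aging diabetic against natural aging liver, 3 of 8 insulin-induced genes were at least 2-fold lower and 0 higher, with a list median of -0.795, where 6.09% of all genes were lower. Egr1 was 12.3-fold and Pnpla5 2.56-fold lower, and Pfkfb1, the liver bifunctional fructose-2,6-bisphosphate enzyme, was just past the threshold at -1.006 log2. Srebf1, of the same list, fell just short at -0.995 log2, so the count depends on where the threshold lies. Among 19 brakes on insulin signalling, 3 were lower (Socs3, Socs1 and Trib2) and 1 higher (Trib3). Socs3, a cytokine-induced inhibitor of receptor signalling, was at 0.27 log2 on the APS plus metformin array, 0.78 on the metformin array, -0.30 on the aging diabetic array and 2.32 on the natural aging array, and aging diabetic was 6.13-fold lower. Trib3, a pseudokinase that binds AKT and is induced by stress, was at 1.95 on the APS plus metformin array, 1.96 on the metformin array, 1.24 on the aging diabetic array and -0.79 on the natural aging array. All 3 diabetic arrays were thus at least 4.10-fold above natural aging for Trib3. Pdk4 was at 0.79 with APS plus metformin, 1.82 with metformin, -0.14 in the aging diabetic liver and 2.21 in the natural aging liver, and the aging diabetic level was 5.11-fold lower. It was the 1 of 13 FoxO and fasting targets past 2-fold in that comparison.

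Among the regulators, the WNT effector gene Tcf7l2 was 2.51-fold higher in aging diabetic than in natural aging liver, a difference that became 0.65 log2 when spots with an outlier flag were kept, while Nr4a1 was 2.60-fold lower. In the list of IGF binding proteins and the IGF axis, 2 of 10 genes were lower and 1 higher. Igfals, the liver partner of circulating IGF-1, was 2.62-fold lower and Igfbp3 2.11-fold lower, in the same direction as Igfbp1 at 1.81-fold. The higher gene was Igf2, its natural aging signal not being above background. Short of 2-fold, Igfbp4 and Igfbp7 were lower (-0.605 and -0.511 log2), and Igfbp2, Igfbp5 and Igfbp6 higher (0.134, 0.274 and 0.081). Igfbp3 stood at -0.99 log2 with normexp background correction. Of 22 genes from the receptor to AKT and mTOR 1 was lower, the adaptor gene Sh2b2 (2.65-fold), and of 23 enzymes and transporters Pklr was 2.37-fold lower and Fbp2 higher, its natural aging signal not being above background. Over all genes in this comparison, 6.09% were lower and 8.20% higher.

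With metformin against aging diabetic liver, 0 of 23 enzymes and transporters and 0 of 23 genes from the receptor to AKT and mTOR passed 2-fold, with medians of -0.22 and -0.16. Pdk4 was 3.90-fold higher and Nr4a1 5.06-fold higher, and Egr1 was 7.35-fold higher. Of 19 brakes on insulin signalling 4 were higher (Inpp5d, Trib2, Socs3 and Phlpp2) and 0 lower, where 11.9% of all genes were higher. The highest was Inpp5d, the phosphatase SHIP1 of blood cells, at 3.03-fold, on the array where T and NK cell markers were also highest. That count of 4 became 2 after quantile normalization and 1 with median scaling. Of the IGF axis 4 of 10 were higher (Igf2, Igfbp6, Igfbp3 and Igfbp5), led by Igf2 at 12.1-fold.

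Set against natural aging liver, the APS plus metformin array had 4 of 8 insulin-induced genes lower and 0 higher, at a list median of -1.027, where 6.68% of all genes were lower. Pnpla3 was lowest, by 8.91-fold (-2.54 log2 with its probes averaged), followed by Pnpla5 at 6.75-fold, Egr1 at -2.74 log2 and Acaca, the acetyl-CoA carboxylase gene of fatty acid synthesis, at -1.13 log2. Pklr was 6.42-fold lower and Ppargc1b 4.45-fold higher, and none of the other genes compared in those lists of enzymes and regulators passed 2-fold. Metformin against natural aging had 1 of 8 insulin-induced genes lower, Pnpla5 by 4.96-fold, a count that became 3 with median scaling, where 4.71% of all genes were lower.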

How the data were processed

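Liver RNA of 4 groups was measured on 1 one-colour array each (Cy5, red channel). Spot intensity in the deposited array files had been background-subtracted and detrended by Feature Extraction (version 11.5.1.1 per the file headers, 10.7 per the submitters' processing notes). The files also hold its error and flags for spots above background, saturated or outlying, per the file headers. The authors' deposited series table holds log2 values whose normalization is not given in the sources used here. Its differences were nearly those after quantile normalization, so it is not a separate check on them. For aging diabetic against natural aging, both gave 1099 genes at least 2-fold higher and 893 lower.

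With Python 3.11.15, numpy 2.4.6 and pandas 2.3.3, processed signals were put on the log2 scale, less the array's 75th percentile. Outlier spots were left out: of 56605 probes, 51780 remained. Unversioned transcript accessions matched 33767 probes to 23462 symbols of a RefSeq mouse gene table and left 22838 unmatched. The probe with the highest mean signal stood for a gene. Genes well above background on at least 1 of 2 arrays were compared; with 1 such array the difference is a bound. No test was possible. The procedure was tested on simulated data. The precision is limited by the number of arrays.

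The 10 genes, 7 lists and 12 sets of cell markers were chosen with earlier results of these data known. Of the lists, 2 genes are not reported here and enter no list count. Named list genes are the 2 largest differences per direction, list and comparison past 2-fold and well above background on both arrays, with the 3 genes nearest the member of widest range; not all are given in the text. Other list genes were named to complete a count of 5 or fewer, such as Pfkfb1 and Acaca, or to show its limits, such as Srebf1. They were chosen after their values were seen. Alternatives were quantile normalization, median scaling, normexp on median signals (R 4.3.3, limma 3.58.1; chosen after seeing the files, which hold no mean signal), the authors' deposited log2 table, outlier spots kept, probes averaged, a filter on all 4 arrays, and a 1.5-fold threshold.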

Additional observations from a re-analysis of the deposited data

How the results depend on the processing

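No paired analysis was possible because each group has 1 array and the groups share only 1 replicate number. Ppargc1a stayed past 2-fold in all 7 alternatives in each comparison with APS plus metformin on top, and Irs2 did so for metformin against natural aging. Some of the 7 could not change these values. Both genes had 1 usable probe, so averaging probes changed nothing, and both passed the filter on all 4 arrays. Keeping outlier spots left the same probe for each gene. The deposited table gave nearly the same values as quantile normalization. Counts of the 10 genes that changed were as follows. In aging diabetic against natural aging, the 1 lower gene became 0 after quantile normalization and in the authors' deposited table, and 2 at 1.5-fold. In APS plus metformin against metformin, the 1 higher gene became 2 with median scaling and 2 at 1.5-fold. In metformin against natural aging, the 1 lower gene became 2 with median scaling and 5 at 1.5-fold, and in APS plus metformin against natural aging 0 lower genes became 1 at 1.5-fold. Median scaling moved the median of all genes to -0.165 for metformin against aging diabetic, 0.131 for APS plus metformin against metformin and -0.175 for metformin against natural aging, and the member medians to -0.324, 0.418 and -0.724. The share of higher genes among all past 2-fold moved with it, to 63.9% from 77.1%, to 28.0% from 16.0% and to 55.8% from 73.4%. After quantile normalization and in the authors' deposited table the member medians were both -0.116 for aging diabetic against natural aging, 0.047 and 0.046 for APS plus metformin against metformin, and both -0.12 for metformin against natural aging. In all, 17 of these values moved and 121 did not, and no difference past 2-fold changed sign. The 121 include settings that could not move a value, such as the filter on all 4 arrays, which every member passed. The sign of smaller differences was less firm: between 1 and 4 of the 10 genes per comparison changed sign in at least 1 alternative, among them Pcx in 4 comparisons. The cause was not tested. Single arrays, and single spots for each probe, limit all of these values.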
